A study of Mus musculus with 6 samples.

Results

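Histone modifying enzymes and Polycomb genes were compared between regulatory T cells (Treg) from Dnmt1 knockout and wild type mice. The members were 39 genes listed by name, and a probe set belonged to a member when the platform annotation gave that gene as its 1 symbol. On the arrays 38 of the 39 were measured, by 68 probe sets, among 12393 genes in all, and Kdm4a is not analysed here. The probe set brightest over the 6 arrays stands for a gene. Other probe sets are given for some members and counted together for all. The 3 knockout arrays held RNA of magnetically separated CD4+CD25+ cells from fl-DNMT1/Foxp3cre mice, in which a floxed Dnmt1 gene is cut by Cre recombinase made in cells that express Foxp3. The 3 wild type arrays held CD4+CD25+ cells from C57BL6 mice without a stated Cre or floxed allele, so effects of those alleles and of the Dnmt1 deletion cannot be told apart. The labels give C57BL6 as the strain of all 6 samples and give no age. The samples of a group are described as independent without naming an animal for each, so p-values measure the spread between these samples, which may be technical.

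Values are log2 expression summaries, on which a difference of 1 is a 2-fold change, and they compress low levels towards a floor. The targeted gene Dnmt1 stood at 9.5 ± 0.07 (SD, n = 3) on wild type arrays and at 8.67, 8.89 and 9.34 on knockout arrays (limma adjusted p = 0.152), and Foxp3 at 9.5 ± 0.02 and 8.84 ± 0.42 (adjusted p = 0.142). Both genes had all knockout values below all wild type values. Whether this Dnmt1 probe set, the brighter of 2, lies within the deleted stretch is unknown here. A probe set outside that stretch does not read the deletion directly. The defining markers of the separated cells were present, with Il2ra, encoding CD25, at 9.03 ± 0.11 in wild type cells against 8.38 ± 0.20 (adjusted p = 0.0432). Knockout arrays also carried more signal of neutrophil markers, whose list mean was 6.09 to 6.55 in wild type and 8.37, 10.46 and 9.05 in knockout replicates 1, 2 and 3. All 6 arrays had Xist at a high level (11.50 ± 0.14 and 11.34 ± 0.30) and the Y-linked Kdm5d (3.21 ± 0.06 and 3.13 ± 0.16) and Uty (2.99 ± 0.06 and 3.05 ± 0.05) near the floor, so sex did not differ between the groups by these markers.

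DNA in the cell nucleus is wound around histones, and the members add or remove small groups on the histone tails. Acetyltransferases and deacetylases act on lysine acetylation, which marks open chromatin, while methyltransferases and demethylases act on lysine and arginine methylation, which marks active or silent chromatin depending on the residue. Polycomb repressive complex 2 (PRC2) methylates lysine on histone H3 to mark silent genes, and Polycomb repressive complex 1 (PRC1) ubiquitinates histone H2A at such genes. In Treg some of these enzymes also act on Foxp3 itself, whose stability depends on acetylation, and several deacetylases and H3K9 methyltransferases are known as binding partners of Dnmt1.

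The members as a whole lay slightly lower in the knockout, and 1 passed the test. The histone H3K4 demethylase gene Kdm5b fell 1.498-fold, and 0 members rose at an adjusted p under 0.05, where the background over all genes was 1.9% in either direction, 0.573% lower and 1.33% higher. At an unadjusted p under 0.05, 11 of the 38 members were lower and 1 higher, against 9.37% and 8.56% of all genes and 17.9% in either direction. Of the 38 members, 30 had a lower mean in the knockout, against 53.7% of all genes, and under the other scalings of the arrays this count was 29 to 33, against 47.6% to 60.1% of genes. The median difference of the members was -0.097 and that of all genes -0.014. All 3 knockout values lay below all 3 wild type values for 14 members and above them for 1, Kat2b, against 14% and 11% of all genes and 25% for both directions. In a bulk sample, fewer cells of a type and less RNA per cell cannot be told apart. Differences were small throughout, since Kdm5b was the 1 member with a difference beyond 0.5.

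**Figure D1:**
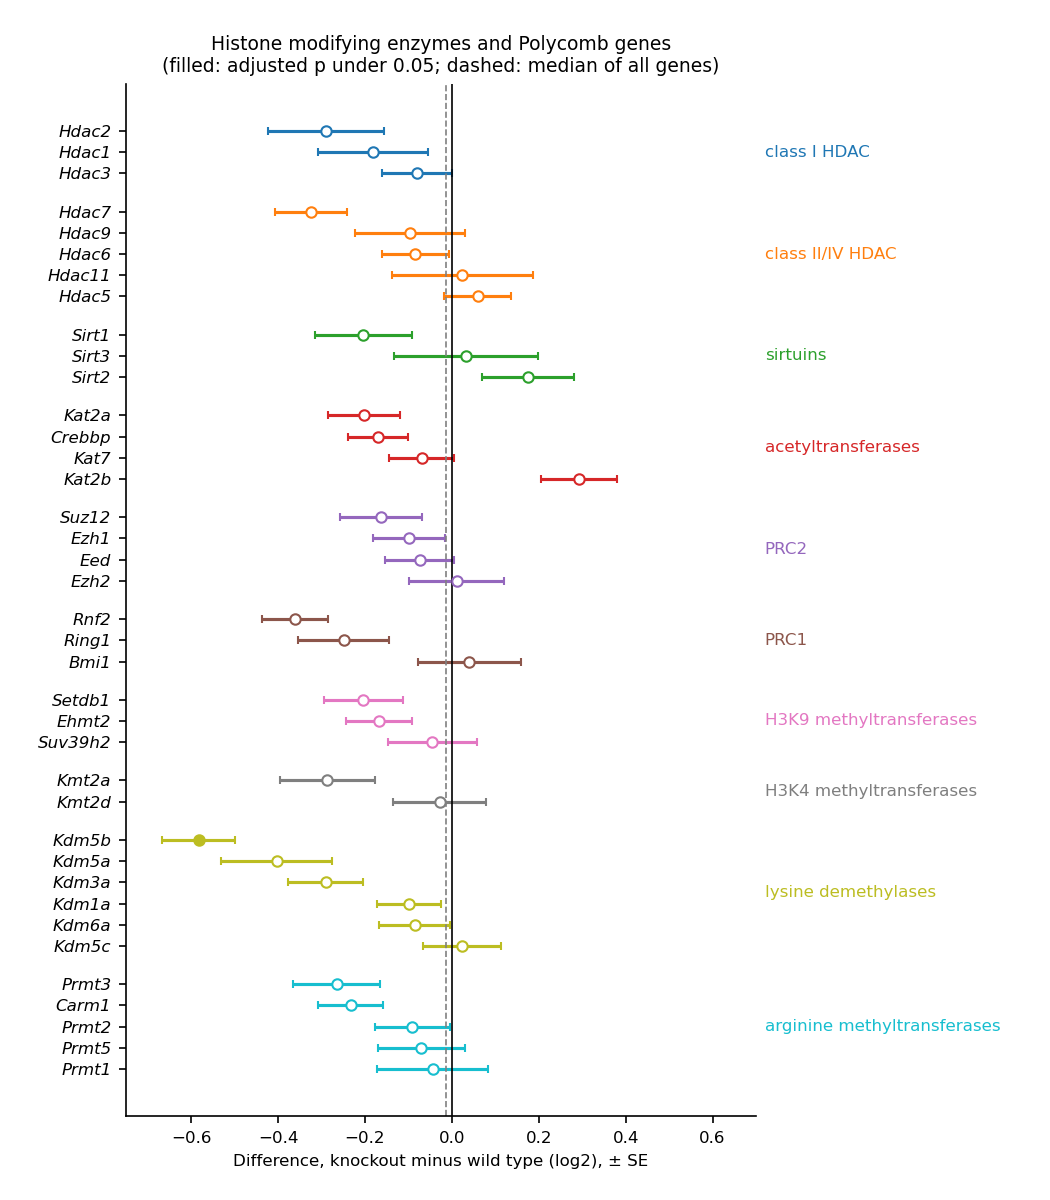
Differences of the 38 measured members, knockout minus wild type on the log2 scale, with the standard error from limma, grouped by enzyme class (filled point, adjusted p under 0.05; open points, not past it; dashed line, median of all genes at -0.014). Kdm5b at -0.58 is the filled point, Kat2b at 0.29 lies farthest to the right, and 30 of 38 points lie left of 0.

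Well expressed genes in general had a lower mean in the knockout more often than dim genes. Of the members, 32 lay above the level of the median gene (6.34), and 34 passed a filter that left out the dimmest 40% of genes. Among those 32, 27 had a lower mean in the knockout, as had 62.5% of all genes above that level. In the same level range 11 members were lower at an unadjusted p under 0.05, against 13.8% of genes, and the knockout lay below all wild type values for 14 members, against 21.2% of genes. After adjustment 2.5% of these genes passed, as did 1 of the 32 members. The 6 members below the median gene were Hdac9, Hdac11, Sirt3, Suv39h2, Kmt2d and Kdm5c, of which 3 had a lower and 3 a higher mean, all within 0.10 of 0. The difference between the members' shares and those of genes in this level range was not tested.

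**Figure D2:**
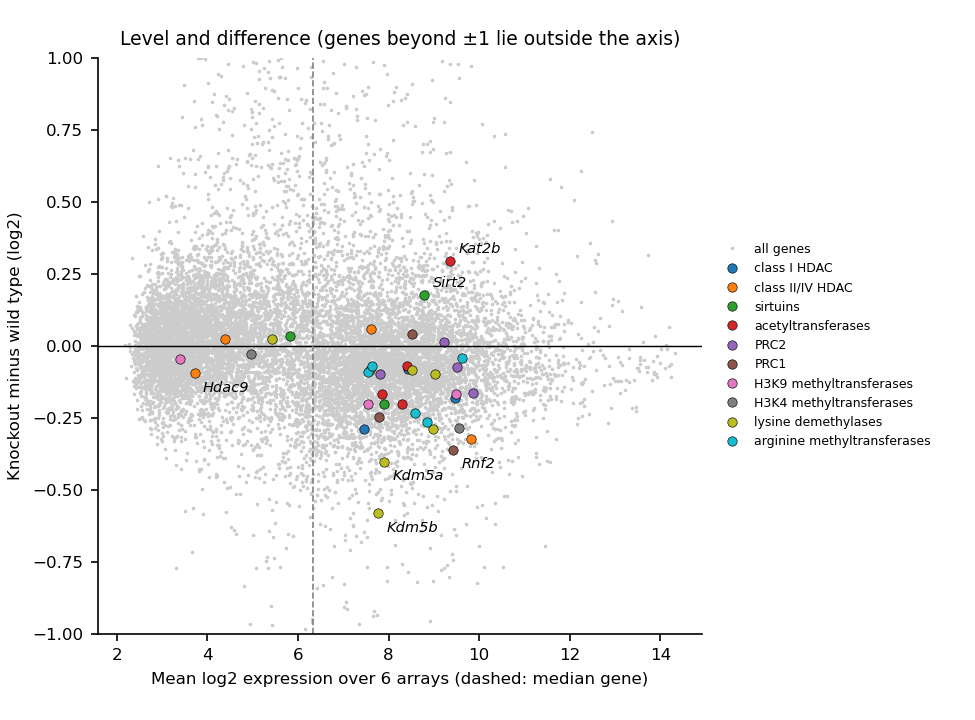
Mean log2 expression over the 6 arrays against the difference, knockout minus wild type, for all genes (grey) and for the members (coloured by enzyme class); the dashed line marks the median gene at 6.34. Most members lie to the right of the dashed line and below 0, Kdm5b lowest at -0.58.

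The lysine demethylases held the largest difference. Kdm5b, which removes methyl groups from H3K4, the mark of active promoters, had 8.05, 7.97 and 8.17 in the 3 wild type samples and 7.55, 7.43 and 7.46 in the 3 knockout samples. The groups did not overlap, and the lowest wild type value stood 0.42 above the highest knockout value. The difference was -0.58 (SE 0.08, limma adjusted p = 0.023). Leaving out wild type replicate 1, 2 or 3 ended the call (adjusted p = 0.103, 0.0804 and 0.115), as did leaving out knockout replicate 3 (0.0646), while the difference stayed between -0.63 and -0.53 with any array left out. Averaging the probe sets of the gene also ended the call (-0.52, adjusted p = 0.0553). So did a replicate block (adjusted p = 0.057), though no pairing of the samples is stated. A covariate for the neutrophil marker mean, which follows the groups, left -0.38 (adjusted p = 0.562). The dimmer Kdm5b probe set had 6.57, 6.67 and 6.87 in wild type and 6.53, 6.05 and 6.15 in the knockout, with a difference of -0.46 (adjusted p = 0.169 over all probe sets).

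The other demethylases did not pass the test. Kdm5a, a close relative with the same substrate, had 8.26, 7.97 and 8.08 in wild type and 7.46, 7.85 and 7.78 in knockout cells, differing by -0.40 (SE 0.13, adjusted p = 0.167). Knockout replicate 1 was the lowest of these, and the groups did not overlap. Kdm5c, the X-linked relative, lay below the median gene with 5.41 ± 0.08 and 5.43 ± 0.12 (SD, n = 3), and its difference of 0.023 turned negative under median centring and quantile normalisation. Kdm3a, which removes methyl groups from H3K9, had 9.13, 9.11 and 9.15 against 8.97, 8.85 and 8.71, a difference of -0.29 (SE 0.09, adjusted p = 0.147) with no overlap. Kdm1a, the flavin-dependent demethylase LSD1, had 9.08 ± 0.01 and 8.98 ± 0.07, while its other probe set had 8.14 ± 0.11 and 7.76 ± 0.04, a difference of -0.38 (adjusted p = 0.078 over all probe sets). Kdm6a, the X-linked demethylase of H3K27, had 8.56 ± 0.05 and 8.47 ± 0.10. Of 6 measured demethylases, 5 had a lower mean against 53.7% of all genes, and in 4 the knockout lay below all wild type values, against 14% of genes and 21.2% of those above the median level. The median difference of the class was -0.19.

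PRC1 held the member with the second lowest p. Rnf2, encoding RING1B, a catalytic subunit that ubiquitinates H2A, had 9.65, 9.61 and 9.56 in wild type and 9.33, 9.20 and 9.21 in the knockout. Every knockout value lay below every wild type value. The difference was -0.36 (SE 0.08, limma adjusted p = 0.0669) and did not pass. It passed under limma's trended variance (0.0355), without the dimmest 40% of genes (0.043) and without knockout replicate 1 (0.0449). With 1 array left out the adjusted p ran from 0.0449 to 0.231. Rnf2 differed by -0.26 with probe sets averaged (adjusted p = 0.128) and by -0.22 with the neutrophil covariate (adjusted p = 0.734). Its second probe set had 8.41, 8.19 and 8.35 against 8.12, 7.93 and 8.01, a difference of -0.30 (adjusted p = 0.178 over all probe sets), and of the 3 dim ones the differences ran from -0.52 to -0.072. Ring1, the alternative catalytic subunit, had 7.84, 7.87 and 8.03 against 7.71, 7.49 and 7.79, a difference of -0.25 (adjusted p = 0.27). Bmi1, a partner of the catalytic subunits known for repressing the Cdkn2a locus, had 8.56, 8.56 and 8.37 against 8.75, 8.34 and 8.52, and these values overlapped. The median of the 3 PRC1 genes was -0.25.

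PRC2 had 0 of 4 subunit genes past the threshold and 0 at an unadjusted p under 0.05, against 1.9% and 17.9% of all genes. Ezh2, the catalytic subunit of dividing cells, had 9.17, 9.22 and 9.26 in wild type and 9.18, 9.05 and 9.44 in knockout cells, differing by 0.011 (SE 0.11, adjusted p = 0.972), negative under median centring (-0.017). The highest value was in knockout replicate 3. That array also had the highest mean of 15 mitosis genes, 7.96 against 6.95 to 7.24 in wild type and 7.05 and 6.98 in the other knockout arrays, and of 15 S phase genes, 8.88 against 8.22 to 8.53 on the other arrays. The part of dividing cells in the Ezh2 values was not tested. Ezh1, the catalytic subunit of resting cells, had 7.86 ± 0.04 and 7.76 ± 0.11, Suz12 9.96 ± 0.06 and 9.79 ± 0.15, and Eed, which binds the methylated lysine, 9.55 ± 0.08 and 9.47 ± 0.06. The Suz12 values of knockout replicates 1 and 2 (9.67 and 9.75) lay below wild type and that of replicate 3 (9.96) within it.

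The acetyltransferases held the 1 member whose knockout values all lay above wild type. Kat2b, encoding PCAF, had 9.14, 9.29 and 9.23 in wild type and 9.60, 9.55 and 9.39 in knockout cells, differing by 0.29 (SE 0.09, adjusted p = 0.148). Its close relative Kat2a, encoding GCN5, had 8.36, 8.32 and 8.51 against 8.17, 8.25 and 8.16, a difference of -0.20 (SE 0.08, adjusted p = 0.261). The groups did not overlap for either gene, and they lay on opposite sides. The other Kat2b probe set was dim and scattered (4.64 ± 0.57 and 4.75 ± 0.16), and of the other Kat2a probe sets 1 had 7.35 ± 0.06 and 7.08 ± 0.04 and the dimmest 6.28 ± 0.06 and 6.27 ± 0.07. Crebbp, encoding CBP, which acetylates many transcription factors besides histones, had 7.92, 7.94 and 7.93 against 7.74, 7.75 and 7.80. This gap of 0.12 between the groups was wide against a wild type SD of 0.0084, but the difference of -0.17 did not pass (SE 0.07, adjusted p = 0.26). Kat7, encoding HBO1, had 8.44 ± 0.05 and 8.37 ± 0.06, and its dim probe set 5.34 ± 0.18 and 5.02 ± 0.02 without overlap.

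**Figure D3:**
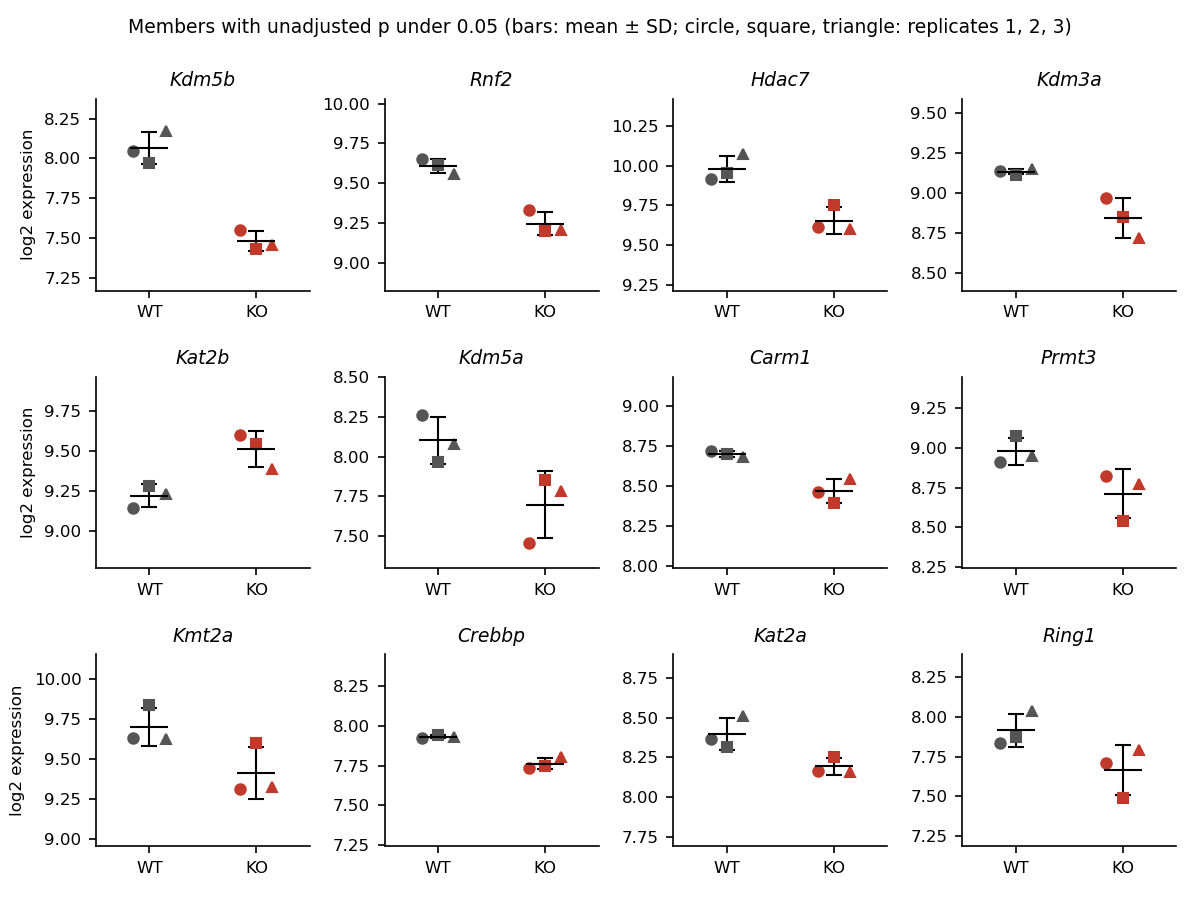
Log2 expression per array of the 12 members with an unadjusted p under 0.05, each panel spanning the same range on the log2 axis (grey, wild type; red, knockout; circle, square and triangle for replicates 1, 2 and 3; bars, mean ± SD). In the 12 panels the groups do not overlap, and Kat2b is the panel with the knockout above.

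Promoter sequences of RefSeq (build GRCm38.p6) were at hand for 34 of the 38 members, as 43 windows from 250 bases before to 50 after a transcription start, and Hdac1, Hdac3, Kdm5a and Carm1 are not analysed in this respect. The 250 bases before the start are shown for Kdm5b, the member that fell, for Rnf2 and Kat2b, which lay lower and higher without passing, and for Hdac9, whose level was near the floor, with each CG dinucleotide, the site Dnmt1 methylates, in capitals. Kdm5b lies at chr1:134559928-134560177 on the plus strand, Rnf2 at chr1:151500992-151501241 on the minus strand, Kat2b at chr17:53566721-53566970 on the plus strand and Hdac9 at chr12:34917096-34917345 on the minus strand.
Kdm5b: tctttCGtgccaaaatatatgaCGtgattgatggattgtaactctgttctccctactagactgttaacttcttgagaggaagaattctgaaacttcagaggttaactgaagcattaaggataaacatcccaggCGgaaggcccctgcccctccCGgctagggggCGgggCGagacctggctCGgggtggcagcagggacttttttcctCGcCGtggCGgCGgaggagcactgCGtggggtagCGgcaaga
Rnf2: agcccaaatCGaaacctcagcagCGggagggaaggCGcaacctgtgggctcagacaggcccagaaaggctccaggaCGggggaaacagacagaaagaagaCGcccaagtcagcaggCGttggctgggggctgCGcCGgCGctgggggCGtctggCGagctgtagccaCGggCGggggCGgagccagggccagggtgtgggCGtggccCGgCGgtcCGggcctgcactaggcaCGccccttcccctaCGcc
Kat2b: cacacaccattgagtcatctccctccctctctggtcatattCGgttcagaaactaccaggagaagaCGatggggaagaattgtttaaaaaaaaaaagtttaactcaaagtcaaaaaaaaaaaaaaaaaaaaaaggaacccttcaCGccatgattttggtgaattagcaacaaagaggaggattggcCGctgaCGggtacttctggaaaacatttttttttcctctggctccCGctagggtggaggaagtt
Hdac9: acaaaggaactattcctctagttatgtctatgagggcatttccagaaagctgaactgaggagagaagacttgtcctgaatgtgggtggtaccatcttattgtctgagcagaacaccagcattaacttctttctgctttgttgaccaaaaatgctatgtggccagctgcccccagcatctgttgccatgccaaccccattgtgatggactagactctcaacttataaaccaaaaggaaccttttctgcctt
These 4 stretches hold 13, 20, 6 and 0 CG sites. Kat2b and Hdac9 each have a second window, and the second of Hdac9 holds 3 sites in 300 bases.

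Most member promoters were rich in CG. The 43 member windows held a median of 23 CG sites in 300 bases, against 17 over the 12566 windows of tested genes, and 86.05% of them had an observed over expected CG ratio above 0.6, against 58.4%. The Kdm5b window held 17 sites (ratio 0.781), that of Rnf2 30 (0.761) and the Kat2b window shown 11 (0.672). The windows of the most CG-rich members, Crebbp (49) and Sirt1 (47), belonged to genes with differences of -0.17 and -0.20. The GC box GGGCGG, searched on both strands, was found in 60.5% of member windows and 55.4% of those of tested genes, CCAAT in 41.9% and 37.1%, and the ETS core CCGGAA in 23.3% and 22.4%. The window of Kdm5b holds the GC box and neither CCAAT nor CCGGAA, as does that of Rnf2, and the Kat2b window shown holds CCAAT alone of the 3. These matches describe letters only, and methylation of these promoters was not measured here.

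The class I enzymes Hdac1, Hdac2 and Hdac3 are the catalytic cores of the Sin3, NuRD and NCoR corepressor complexes. Of these enzyme genes 0 passed the threshold, against 1.9% of all genes, and their median difference was -0.18. Hdac2 had 7.75, 7.56 and 7.50 in wild type and 7.39, 7.04 and 7.51 in knockout cells, differing by -0.29 (SE 0.13, adjusted p = 0.31). Hdac1 had 9.57, 9.56 and 9.52 against 9.61, 9.11 and 9.38. Knockout replicate 2 was the lowest for each, and without it the class median was -0.052, while with the neutrophil covariate it was 0.25. That array also had the highest neutrophil list mean, and the part of other cells in these values was not tested. Hdac3 had 8.48 ± 0.09 and 8.40 ± 0.06.

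Among the class II and IV deacetylases, Hdac7, which shuttles between nucleus and cytoplasm and is abundant in T cells, had 9.92, 9.95 and 10.07 in wild type and 9.61, 9.75 and 9.60 in the knockout. The groups did not overlap, and the difference of -0.32 (SE 0.08, adjusted p = 0.109) did not pass. Its second probe set showed the same separation, with 7.72, 7.69 and 7.84 against 7.44, 7.55 and 7.46. Hdac5 had 7.58 ± 0.05 and 7.64 ± 0.07, and Hdac6, a mainly cytoplasmic tubulin deacetylase, had 7.64 ± 0.05 and 7.56 ± 0.08. Hdac9, known to restrain Treg function, had 3.77 ± 0.24 and 3.68 ± 0.10, and Hdac11, the class IV enzyme, had 4.38 ± 0.35 and 4.41 ± 0.05, both among the dimmest 40% of genes. The sirtuins, deacetylases that use NAD, had 0 of 3 past the threshold, against 1.9% of all genes. Sirt1, which deacetylates Foxp3, had 8.14, 8.04 and 7.84 against 7.92, 7.64 and 7.85. Sirt2 had 8.74, 8.62 and 8.75 against 8.82, 9.08 and 8.74, with knockout replicate 2 the highest, and mitochondrial Sirt3 had 5.81 ± 0.30 and 5.84 ± 0.20.

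The H3K9 methyltransferases Setdb1 and Ehmt2, which mark silent chromatin and repeats, had knockout values below all wild type values without passing. Such a separation was seen in 14% of all genes and 21.2% of those above the median level, where both lay. Setdb1 had 7.64, 7.64 and 7.68 against 7.46, 7.30 and 7.59 (difference -0.20, SE 0.09, adjusted p = 0.295). Its dim probe sets had 3.94 ± 0.08 against 3.68 ± 0.10 and 3.43 ± 0.30 against 3.63 ± 0.20. Ehmt2, encoding G9a, had 9.57, 9.57 and 9.59 against 9.32, 9.48 and 9.42 (difference -0.17, SE 0.08, adjusted p = 0.302). Its dimmer probe set overlapped between the groups (5.85 ± 0.02 and 5.76 ± 0.16). Suv39h2 lay near the floor at 3.43 ± 0.15 and 3.38 ± 0.11. Of the H3K4 methyltransferases, Kmt2a, encoding MLL1, had 9.63, 9.84 and 9.63 against 9.31, 9.60 and 9.32, a difference of -0.29 (SE 0.11, adjusted p = 0.23). The wild type and knockout ranges of Kmt2a came within 0.029 of each other, and its second probe set had 9.19 ± 0.09 and 8.87 ± 0.15. Kmt2d, encoding MLL4, was below the median gene at 4.99 ± 0.03 and 4.96 ± 0.19.

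All 5 arginine methyltransferase genes had a lower mean, against 53.7% of all genes and 62.5% of those above the median level, where they lay. In this class 0 passed the test, against 2.5% of genes in that level range. Carm1, a coactivator that methylates histone H3, had 8.72, 8.70 and 8.68 in wild type and 8.46, 8.40 and 8.55 in knockout cells, differing by -0.23 (SE 0.07, adjusted p = 0.17) with no overlap. Prmt3, whose main substrate is a ribosomal protein, had 8.91, 9.07 and 8.95 against 8.82, 8.54 and 8.77, a difference of -0.26 (SE 0.10, adjusted p = 0.229), also with no overlap. Prmt1, the main source of asymmetric dimethylarginine, had 9.64 ± 0.15 and 9.59 ± 0.21, and its difference of -0.044 was 0.0066 under cyclic loess. Prmt2 had 7.58 ± 0.12 and 7.49 ± 0.05 and Prmt5, which makes symmetric dimethylarginine, 7.68 ± 0.12 and 7.61 ± 0.13. The class median was -0.091.

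**Figure D4:**
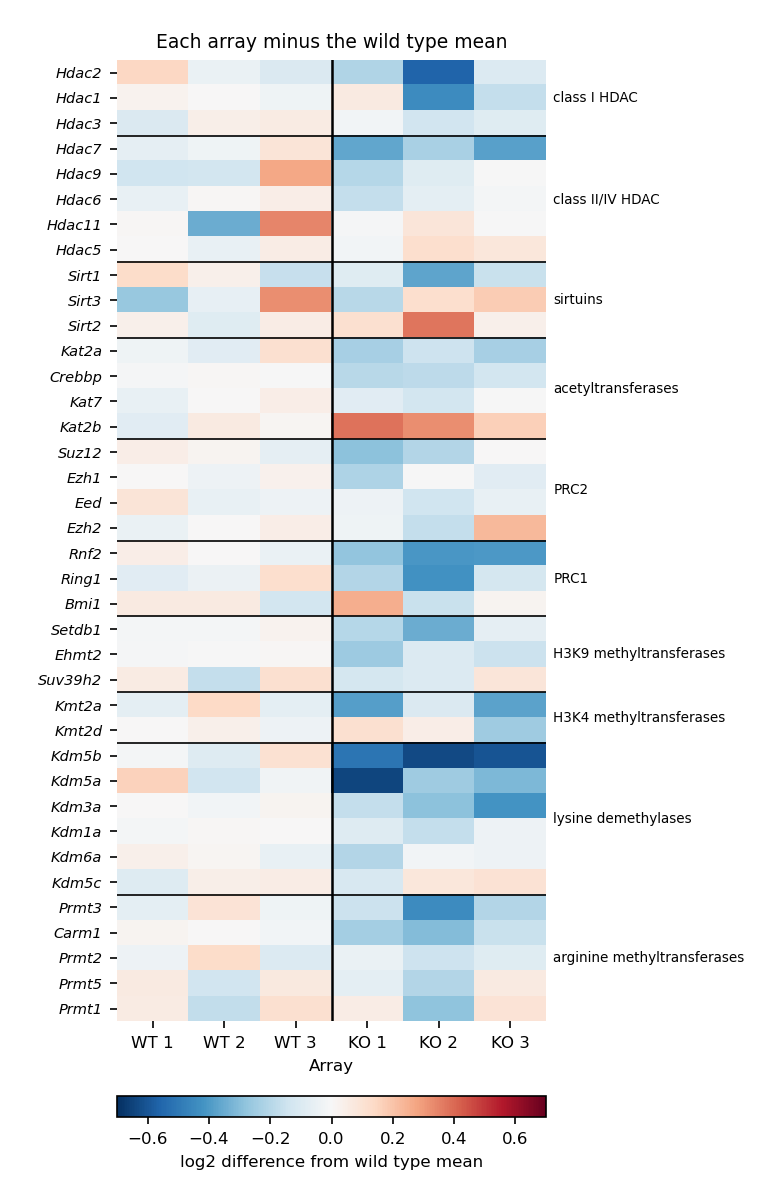
Each array's log2 expression minus the wild type mean of the gene, for the 38 members (rows, by enzyme class) on the 6 arrays (WT, wild type; KO, knockout), from blue (lower) to red (higher). Knockout columns are mostly blue, with 32, 31 and 27 of 38 members below the wild type mean in replicates 1, 2 and 3, and Kat2b is red in all 3 of them.

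By class, the median difference was lowest in PRC1 (-0.25), the demethylases (-0.19) and the class I deacetylases (-0.18), followed by the H3K9 (-0.17) and H3K4 (-0.16) methyltransferases. The acetyltransferases (-0.12), arginine methyltransferases (-0.091), PRC2 (-0.086) and class II and IV deacetylases (-0.084) lay closer to 0, and the sirtuins had 0.032. These directions were the same under quantile normalisation, median centring and cyclic loess. With the neutrophil covariate they turned for PRC1 (0.14), the class I deacetylases (0.25), the H3K9 methyltransferases (0.056), the arginine methyltransferases (0.099) and the sirtuins (-0.19). That covariate follows the groups (6.09 to 6.55 in wild type, 8.37 to 10.46 in the knockout), so the fit separates it poorly from genotype. Without wild type replicate 3 the class II and IV deacetylases had 0.040, and without wild type replicate 1 the sirtuins had -0.10. Sirt3, which sets the sirtuin median, was also negative without knockout replicate 2 (-0.011) and without knockout replicate 3 (-0.040). The order also depended on the setting, as the demethylases (-0.27) lay below PRC1 with probe sets averaged and the class I deacetylases (-0.30) were lowest without knockout replicate 1. No difference between classes was tested, and each had 2 to 6 measured genes. The array means of the demethylases were 8.07, 8.03 and 8.07 in wild type and 7.77, 7.84 and 7.84 in the knockout, and those of PRC1 8.68, 8.68 and 8.66 against 8.60, 8.35 and 8.51. In both classes the groups did not overlap, as for 25% of single genes in either direction. The same held for the mean of the class I deacetylases (wild type 8.52 to 8.57, knockout 8.16 to 8.49), though for 0 of their 3 genes alone. The groups also did not overlap for the arginine methyltransferases (wild type 8.50 to 8.52, knockout 8.24 to 8.46). No share of such separation was computed for means of other gene sets. In the class II and IV deacetylases, sirtuins, acetyltransferases, PRC2 and the H3K9 and H3K4 methyltransferases the groups overlapped. The PRC2 means were 9.17, 9.13 and 9.14 against 9.0, 9.02 and 9.17, so that knockout replicate 3 stood at the wild type level.

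Related enzymes were compared as 12 pairs by the change in their log2 difference within each array, with an exact two-sided permutation test over arrays, whose smallest possible p is 0.1. For Kat2a relative to Kat2b the change was -0.50 (within-group SD 0.13 and 0.11, exact p = 0.1, adjusted over the 12 pairs 0.24). These acetyltransferases were the pair whose members lay on opposite sides without overlap, which fixes the exact p at its smallest value. Relative to Kdm5c the change was -0.61 for Kdm5b and -0.43 for Kdm5a (exact p = 0.1 and adjusted 0.24 for each). For Hdac5 relative to Hdac7 it was 0.38 and for Kmt2a relative to Kmt2d -0.26, at the same exact p = 0.1. For Hdac1 and Hdac2 the change was 0.11 (exact p = 0.4), for Ezh1 and Ezh2 -0.11 (exact p = 0.5), for Ring1 and Rnf2 0.11 (exact p = 0.4) and for Kdm5a and Kdm5b 0.18 (exact p = 0.4). For the remaining 3 pairs, Hdac5 and Hdac9, Hdac7 and Hdac9, and Prmt1 and Carm1, the exact p was 0.2, 0.3 and 0.3. With 3 arrays a group, 0 pairs could pass the threshold.

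Further probe sets gave a second reading of 20 of the 38 members. Of these 30 probe sets, 22 had a lower and 8 a higher mean in the knockout, 10 were lower and 0 higher at an unadjusted p under 0.05, and 0 passed over all probe sets, where the background was 1.68%. Of 22626 probe sets without controls, 54.8% had a lower mean. At an unadjusted p under 0.05, 9.12% of these were lower and 1704 were higher. The 11 that lay above the median gene all had a lower mean, against 62.5% of genes above that level. This is the sign of the brightest probe set in 10 of them, Bmi1 being the exception (-0.020 against 0.040). Those near the floor scattered more, as for Suv39h2, where the second had 3.14 ± 0.16 and 3.44 ± 0.24. Of the 30, 22 had the sign of the brightest probe set of their gene. Ezh1 was among the exceptions, with 0.097 for the dimmer and -0.099 for the brighter. Suz12 had the most probe sets, 6, of which the 3 brightest had differences of -0.16, -0.12 and -0.19 and the 3 dimmest 0.062, 0.033 and -0.10. Probe sets of 1 gene share the same RNA and are not replicates.

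Other genes of the same machinery were compared in the same way. Of 82 listed genes 50 were measured, 0 passed over all genes, and 10 were lower and 0 higher at an unadjusted p under 0.05. Their median difference was -0.097, and 41 of 50 had a lower mean. Of all genes 9.37% were lower at an unadjusted p under 0.05 and 53.7% had a lower mean, and of genes above the median level, where 40 of the 50 lay, 13.8% and 62.5%. Of 21 further Polycomb genes 17 had a lower mean, with the lowest p for Cbx6, a chromodomain subunit of PRC1 (8.58 ± 0.03 and 8.25 ± 0.06, adjusted p = 0.0765), and Mtf2, an accessory subunit of PRC2 (8.71 ± 0.02 and 8.41 ± 0.10, adjusted p = 0.121). Among 12 further lysine methyltransferase genes, Kmt2c, encoding MLL3, had 8.71 ± 0.06 and 8.33 ± 0.12 (adjusted p = 0.083) and Kmt2e 10.41 ± 0.06 and 10.14 ± 0.10 (adjusted p = 0.16). Among 10 further demethylase genes, Kdm4c had 7.52 ± 0.03 and 7.27 ± 0.03 (adjusted p = 0.128) and Jmjd6 7.65 ± 0.07 and 7.37 ± 0.07 (adjusted p = 0.141).

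The remaining lists were short. The 4 further acetyltransferase genes all lay above the median gene and had a lower mean, against 62.5% of genes in that level range. Kat6b stood at 7.10 ± 0.10 and 6.90 ± 0.14 and Kat6a at 9.49 ± 0.11 and 9.36 ± 0.03. Of the deacetylases only Sirt4 (4.49 ± 0.11 and 4.44 ± 0.08) and Sirt7 (10.28 ± 0.02 and 10.25 ± 0.15) were measured, and of the arginine methyltransferases Prmt6 (5.91 ± 0.14 and 5.88 ± 0.31) and Prmt7 (7.35 ± 0.06 and 7.32 ± 0.19). Of 16 corepressor partners 0 passed and 11 had a lower mean. Of these 16, 14 lay above the median gene, where 2.5% of genes passed and 62.5% had a lower mean. Those with the lowest p were Chd4, the ATPase of NuRD, at 9.20 ± 0.03 and 8.996 ± 0.09 (adjusted p = 0.231) and its partner Mta1 at 8.16 ± 0.06 and 7.98 ± 0.09 (adjusted p = 0.291).

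Markers of the cells in the separated samples moved with the groups too. Over all genes 1.9% passed the threshold, 0.573% lower and 1.33% higher, and 53.7% had a lower mean. Of 11 neutrophil markers 11 had a higher mean and 7 rose, among them S100a8 (9.49 ± 0.40 to 12.95 ± 0.76), S100a9 (9.13 ± 0.42 to 12.97 ± 1.10), Ngp (7.70 ± 0.52 to 12.21 ± 1.24) and Ltf (6.14 ± 0.43 to 10.74 ± 1.35). Of 12 Treg markers 3 fell, Nrp1, Ikzf2 and Il2ra. Another 2 had a higher mean, 1 of them with all knockout values above wild type (a difference of 0.64, unadjusted p under 0.05), and the list mean was 9.23 to 9.32 in wild type and 9.27, 8.88 and 8.61 in knockout replicates 1, 2 and 3. The T cell list, with 0 of 13 past the threshold and 12 with a lower mean, had 10.79 to 10.88 in wild type and 10.88, 10.60 and 10.55 in the knockout. Of 10 CD8 and natural killer markers Klrc1 and Ncr1 rose, 3 had a lower mean (differences down to -0.66, 2 of them at an unadjusted p under 0.05), and the list mean was 7.96 to 8.19 and 8.09 to 8.89. Of 9 monocyte and macrophage markers Cd14 rose (3.57 ± 0.09 to 4.86 ± 0.41). The mean of that list was 6.13 to 6.63 in wild type and 6.56 to 7.68 in the knockout. The 7 B cell markers (list means 7.08 to 8.25 and 7.06 to 7.66) and 5 erythroid markers (list means 4.20 to 4.58 and 4.64 to 5.43) had 0 past the threshold.

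The mean over the 38 members was 8.003, 7.98 and 8.04 on the wild type arrays and 7.88, 7.85 and 7.92 in the knockout. It was lowest on knockout replicate 2, which had the highest neutrophil mean. Knockout replicate 1 had a neutrophil mean of 8.37, above wild type, and a Treg mean of 9.27 and a T cell mean of 10.88, at the wild type level. On that array 32 of 38 members were below their wild type mean, and 51.4% of all genes. Of the members, 9 had their knockout values in the order opposite to the neutrophil markers, among them Kdm5b, Rnf2, Hdac1 and Prmt3, and 7 in the same order, against 19.8% and 18.7% of all genes. With the neutrophil covariate 21 of the 38 had a negative difference, 4 had an unadjusted p under 0.05 and 0 passed. Over all genes the same shares were 49.8%, 10.4% and 0.113%, so the members' counts at this setting were near the background. That covariate follows the groups, and the part of the other cells in the members' differences was not tested.

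**Figure D5:**
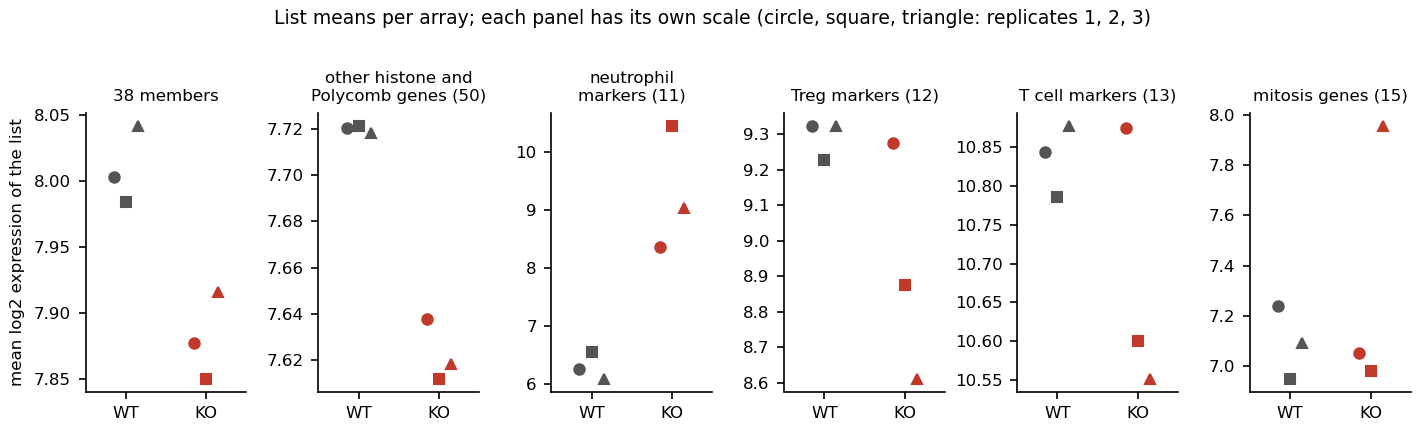
Mean log2 expression per array (vertical axis, own scale in each panel) of the 38 members, of 50 further histone and Polycomb genes, of 3 marker lists and of mitosis genes, with the number of genes in brackets (grey, wild type; red, knockout; circle, square and triangle for replicates 1, 2 and 3). Members lie at 7.98 to 8.04 in wild type and 7.85 to 7.92 in the knockout, neutrophil markers at 6.09 to 6.55 and 8.37 to 10.46.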

How the data were processed

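Total RNA of 6 samples of CD4+CD25+ cells was labelled with biotin and measured on 1-colour oligonucleotide arrays, 3 wild type and 3 Dnmt1 knockout per the genotype labels. The authors deposited 1 log2 value per probe set and array, and the submitters' processing notes name RMA as the tool, with no version or settings stated there. As RMA normalises between arrays, a general change in RNA content per cell would not be seen. The number of arrays limits the precision.

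Of 22690 probe sets, 20380 had 1 gene symbol in the platform annotation, giving 12393 genes by the brightest probe set. Groups were compared with limma 3.58.1 (lmFit, eBayes) in R 4.3.3, two-sided, with Benjamini-Hochberg adjustment over all genes, or over all probe sets where stated, and called under 0.05. The test was also run on simulated data with known changes. Errors of means are SD over 3 arrays, and SE is that of limma. All members are named, then of each list of other histone genes the called ones, up to 4 by lowest p, or otherwise the 2 with the lowest p, and of marker lists the called ones, up to 4. The members, enzyme classes and lists were chosen with earlier results of these data known, and lists are described by counts and medians without a set test. Genes of the lists without a probe set named here are not analysed. Promoters are RefSeq's, build GRCm38.p6. Python 3.11.15 with matplotlib 3.10.9 made the figures.

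Alternatives were quantile normalisation, median centring, cyclic loess, leaving out the dimmest 40% of genes, averaging probe sets, trended or robust variance, array weights, a replicate block, the neutrophil marker mean as a covariate, and leaving out each array.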

Additional observations from a re-analysis of the deposited data

How the results depend on the processing

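Kdm5b kept a negative difference under all 16 alternatives (-0.63 to -0.38) and Rnf2 too (-0.40 to -0.22). The count of members past the threshold was 0 with probe sets averaged, with the replicate block and with the neutrophil covariate, 2 with trended variance and without the dimmest 40% of genes, and 0 to 2 with 1 array left out. No pairing of replicate numbers is stated, and deviations of same-numbered arrays correlated at -0.082, 0.15 and -0.041. With the replicate block, Kdm5b had adjusted p = 0.057 and 147 genes passed in place of 236. The count over all genes was 14 with the neutrophil covariate, 544 and 115 without knockout replicates 1 and 3, and 21, 44 and 21 without wild type replicates 1, 2 and 3. Averaging probe sets gave Kdm5b -0.52 (adjusted p = 0.0553). The count of members at an unadjusted p under 0.05 was 7 with cyclic loess and 4 with the neutrophil covariate, against 16.7% and 10.4% of all genes. The median over members was -0.049 with cyclic loess, -0.12 with median centring, -0.13 without dim genes, -0.073 with the covariate and -0.14 to -0.096 with 1 array left out. These scalings put the median of all genes between -0.042 and 0.0095.

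With the neutrophil covariate, class medians were 0.25 for class I deacetylases, -0.19 for sirtuins, -0.067 for acetyltransferases, 0.14 for PRC1, 0.056 and -0.41 for H3K9 and H3K4 methyltransferases and 0.099 for arginine methyltransferases. Acetyltransferases were at -0.067 with cyclic loess, and H3K4 methyltransferases at -0.29 without dim genes, which leaves Kmt2a alone. With 1 array left out, class I deacetylases ranged from -0.30 to -0.052, class II and IV from -0.15 to 0.040 and sirtuins from -0.10 to 0.19. For the pairs, the covariate gave -0.40 for Hdac7 and Hdac9, -0.64 for Ezh1 and Ezh2, 0.36 for Ring1 and Rnf2, -0.46 for Kdm5a and Kdm5b, -0.65 and -0.18 for Kdm5a and Kdm5b against Kdm5c, 0.66 for Prmt1 and Carm1 and -0.71 for Kmt2a and Kmt2d. Averaging probe sets gave -0.37 for Kat2a and Kat2b.

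Single genes turned as follows, none of them past the threshold. The neutrophil covariate follows the groups, so its fits separate it poorly from genotype. With the covariate the differences were 0.48 for Hdac1, 0.25 for Hdac2, 0.067 for Hdac3, -0.084 for Hdac5, 0.14 for Sirt1, -0.19 for Sirt2, -0.22 for Sirt3, 0.032 for Kat7, 0.089 for Eed, 0.056 for Suv39h2, 0.068 for Setdb1, 0.030 for Kdm1a, 0.54 for Prmt1, 0.24 for Prmt5, -0.19 for Kdm5c, 0.099 for Prmt3 and 0.14 for Ring1. Hdac11 was at -0.0063 with array weights, -0.10 with probe sets averaged, -0.0031 with median centring and -0.025 with quantile normalisation. Averaging gave 0.13 for Suv39h2, and cyclic loess 0.0066 for Prmt1. Median centring gave -0.017 for Ezh2 and -0.0044 for Kdm5c, and quantile normalisation -0.030 for Kdm5c. With 1 array left out, ranges were -0.067 to 0.14 for Bmi1, -0.099 to 0.099 for Ezh2, -0.15 to 0.20 for Hdac11, -0.17 to 0.040 for Hdac9, -0.022 to 0.090 for Kdm5c, -0.099 to 0.082 for Kmt2d, -0.13 to 0.074 for Prmt1, -0.10 to 0.19 for Sirt3 and -0.13 to 0.0099 for Suv39h2. The cause of these shifts was not tested.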
